A study of Rattus norvegicus with 4 samples.

Results

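Rab GTPases were read out in NR8383 cells, a rat alveolar macrophage line grown from lung lavage, on 4 one-colour Agilent arrays. The set was taken by name, as every non-control probe whose gene name on the array was Rab followed by a number and an optional letter. It held 55 genes and 86 probes, of 18826 genes with a symbol and 45598 probes on the array. All 4 arrays came from 1 group, labelled Control_sub, of cells of this line after 20 passages, cultured submerged with 15% serum and with glutamine at 2 mM. The series' design text calls the 4 samples biological replicates, and gives 4 h of submersion where the treatment protocol gives 48 h after seeding, so no duration is attached to the values. With no second condition analysed here, the data bear on which Rab genes these cells express and on how far the replicates differ.

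Rab proteins are small GTPases that mark the membranes of a cell. An exchange factor loads a Rab with GTP on its own compartment, the active form recruits effectors that tether, move or fuse vesicles, and a GTPase activating protein switches it off. Most Rabs carry lipid (prenyl) groups on cysteines at their end, and an escort protein and a dissociation inhibitor carry them through the cytosol. In macrophages, Rab5 and then Rab7 proteins are known for turning a newly formed phagosome into one that fuses with lysosomes.

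The array measures each Rab through 60-base probes, and the printed sequences show how far probes of related Rabs differ. All were copied from the array's own annotation, are written 5′ to 3′ and have positions on rn4, where a position longer than the probe spans an intron. Among 3608 pairs of probes for different Rab genes, compared over at least 30 bases, the median best identity was 42.1% and 3 pairs reached 70% or more. Rab5a and Rab5c, both early endosome Rabs, formed the longest of these, with 44 identical of 56 aligned bases (78.6%). The Rab5a probe lies at chr9:1492943-1499629 on the minus strand and the Rab5c probe at chr10:89653453-89653946 on the minus strand, and capitals mark the shared bases.
Rab5a probe: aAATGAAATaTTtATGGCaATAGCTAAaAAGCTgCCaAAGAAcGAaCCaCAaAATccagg
Rab5c probe: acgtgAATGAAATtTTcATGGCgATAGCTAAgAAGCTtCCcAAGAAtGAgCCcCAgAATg
The synaptic vesicle Rabs Rab3a (chr16:19190472-19190531, minus strand) and Rab3b (chr5:130283528-130283587, plus strand) shared 37 of 45 aligned bases (82.2%), again in capitals.
Rab3a probe: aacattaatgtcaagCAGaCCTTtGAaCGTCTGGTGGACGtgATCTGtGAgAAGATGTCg
Rab3b probe: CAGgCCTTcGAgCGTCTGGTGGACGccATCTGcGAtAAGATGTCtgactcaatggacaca
Rab3a with Rab7b, the last such pair, shared 71.4% of 35 bases. For the recycling Rabs Rab11b (chr7:16233727-16234468, minus strand) and Rab11a (chr8:68933547-68933606, minus strand), 36 of 54 aligned bases were shared (66.7%).
Rab11b probe: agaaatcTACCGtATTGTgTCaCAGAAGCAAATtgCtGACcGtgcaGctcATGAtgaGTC
Rab11a probe: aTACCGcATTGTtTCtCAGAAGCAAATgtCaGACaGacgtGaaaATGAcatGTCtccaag
No deposited value shows how much of a signal came from a related transcript, so cross-hybridisation was not tested.

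The sequences of 2 Rab probes hold 2 cysteine codons close before a stop codon. The capitals of the Rab35 probe (chr12:42230013-42230072, minus strand) mark 2 cysteine codons followed by the stop codon, the usual prenylated end of a Rab.
Rab35 probe: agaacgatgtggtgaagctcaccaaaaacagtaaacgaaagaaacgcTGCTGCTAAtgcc
The Rab24 probe (chr17:15354962-15355021, plus strand) ends in 2 cysteine codons with further codons before the stop, again in capitals. Rab24 is known as an atypical Rab linked to autophagy.
Rab24 probe: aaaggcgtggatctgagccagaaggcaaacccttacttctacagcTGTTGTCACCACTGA
Read on the probe strand in any frame, 2 cysteine codons (TGC or TGT) with up to 2 further codons before a stop were found in 2 of 86 Rab probes (2.33%), these 2, and in 553 of 45598 probes (1.21%). A match in letters does not show the reading frame of the other probes.

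Replicates 1 to 4 had a 75th percentile of 1317, 1489, 1179 and 958 fluorescence units in the processed signal, and 0 spots were saturated. A level is the log2 processed signal minus the log2 of that percentile, so that 0 is the 75th percentile itself. Levels of different probes are not comparable, so Rab genes are not ranked against each other. A probe counts as detected where the array software found it well above background, and a gene where 1 probe or more passed on all 4 arrays. The labelled cell type was checked on marker genes: 10 of 10 macrophage markers were detected, with Cd68 at 4.74 ± 0.05 (SD, n = 4). Of 7 alveolar macrophage markers 4 were detected, and Marco, Car4 and Chi3l1 were on 0 arrays. Markers of neurons were on 0 arrays for 8 of 8 genes, and 1 of 9 epithelial (Foxj1), 1 of 4 melanocyte (Mlana), 1 of 5 mast cell (Hdc) and 2 of 5 neutrophil markers (Mpo and Camp) were detected. A further 2 epithelial markers, 1 mast cell marker and 1 neutrophil marker passed on 1 to 3 arrays. In such bulk samples, fewer cells with a transcript and less transcript per cell cannot be told apart.

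Most Rab genes were detected. On all 4 arrays 41 of 55 Rab genes (74.5%) were detected, against 54.9% of all genes with a symbol. A further 2, Rab30 and Rab36, had probes that passed on some arrays, and 12 had none. Between 41 and 43 Rab genes were detected on any 1 array. By probe, 61 of 86 Rab probes were detected on all 4 arrays, 6 on 1 to 3 and 19 on 0, against 42.5% detected on all 4 among all probes. Genes with more probes have more chances to be called. Among genes with a single probe 25 of 36 Rab genes (69.4%) were detected, against 49.9% of 12981 genes, and among those with several probes 16 of 19 Rab genes (84.2%), against 65.9%. Brightest probes of detected Rab genes gave 34.5 to 16319 units, and those of the 12 genes on 0 arrays gave 3.44 to 12.3 units, a split that the detection call itself sets. The brightest probes by mean level of Rab30 and Rab36 lay at 6.14 to 22.4 units. Another Rab36 probe reached 37.8 units on replicate 2, above the 34.5 units, so signal alone does not part the groups. These shares, and the counts by compartment below, are descriptions to be read beside the 54.9% of all genes, and were not tested.

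**Figure D1:**
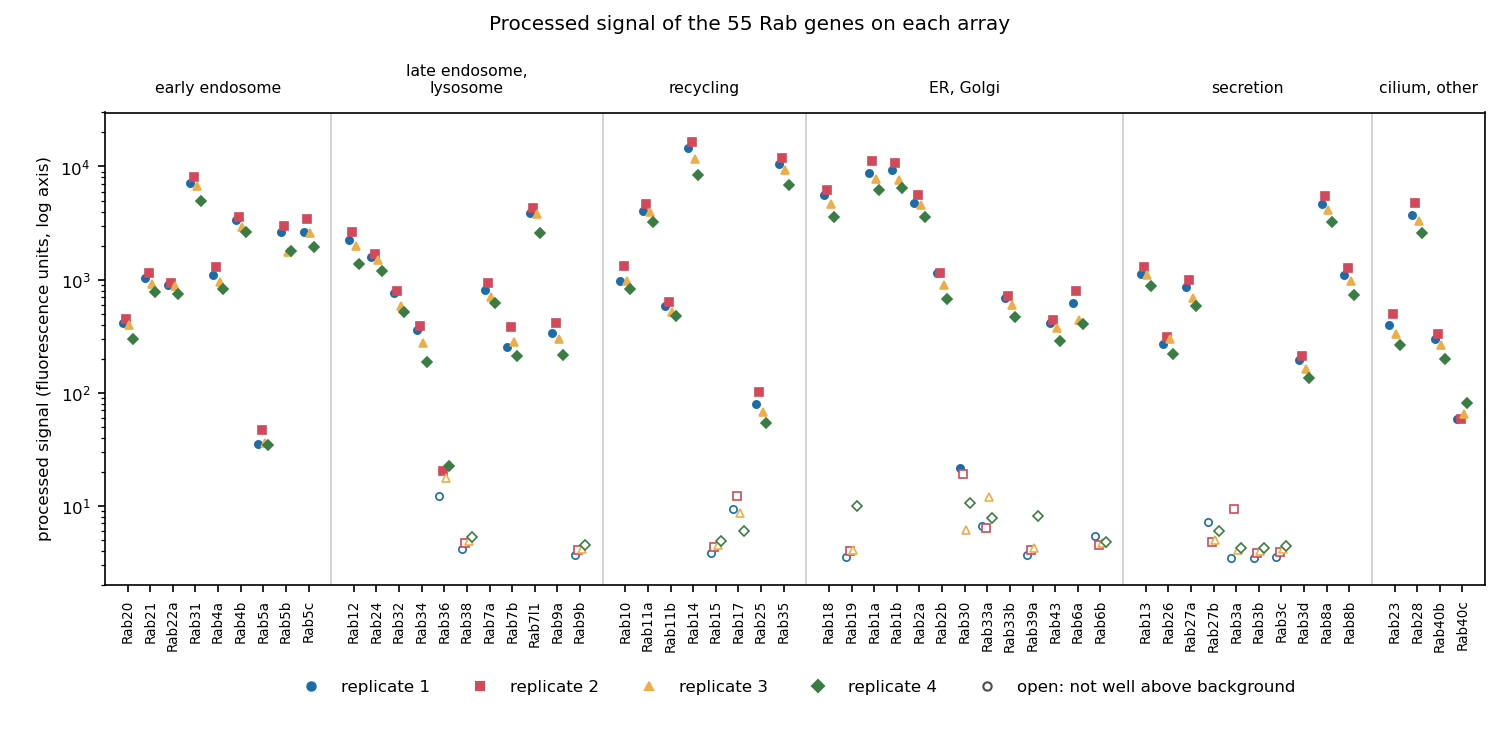
Processed signal (fluorescence units, log axis) of the brightest probe of each of the 55 Rab genes on the 4 arrays, grouped by compartment, with open symbols where the probe was not well above background. Genes detected on all arrays lie at 34.5 units or more and the genes on 0 arrays at 12.3 units or less, and Rab30 and Rab36 span 6.14 to 22.4 units. Another Rab36 probe, not drawn, reached 37.8 units on replicate 2. Heights of different genes are not comparable.

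All 9 early endosome and phagosome Rabs were detected. For Rab5a, which drives fusion of early endosomes, the signal was 35.5, 47.3, 36.3 and 34.5 units on replicates 1 to 4, at a level of -5.00 ± 0.17 (SD, n = 4). Its paralog Rab5b had levels of 0.99, 1.0, 0.57 and 0.91, lowest on replicate 3 (0.87 ± 0.20), and Rab5c had 1.01, 1.21, 1.14 and 1.02 (1.09 ± 0.09). Each of these genes rests on 1 probe, and the Rab5a and Rab5c probes cross an exon junction. The Rab5a probe had the lowest signal of any detected Rab probe (34.5 units). It resembles the Rab5c probe, as shown above, which gave 1946 to 3436 units, and cross-hybridisation was not tested.

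The other early endosome Rabs had an SD between 0.036 and 0.13. Rab4a and Rab4b return receptors quickly to the surface. Levels of Rab4a were -0.26, -0.22, -0.31 and -0.22 (-0.25 ± 0.04), and those of Rab4b were 1.35, 1.25, 1.29 and 1.46 (1.34 ± 0.09). Rab21, known for integrin traffic, had the smallest spread of any detected Rab gene, at -0.36, -0.37, -0.38 and -0.30 (-0.35 ± 0.036). Rab20, known for phagosome maturation in macrophages, lay at -1.66, -1.74, -1.57 and -1.69 (-1.67 ± 0.07). Rab31, which acts between the trans-Golgi network and endosomes, lay at 2.43, 2.44, 2.50 and 2.36 (2.43 ± 0.06), above the 75th percentile on every array. Rab22a, an early endosome and recycling Rab, had 2 of its 3 probes detected, the brightest at -0.55, -0.66, -0.43 and -0.36 (-0.50 ± 0.13). The remaining probe gave 21.3, 25.8, 20.9 and 20.7 units and passed on replicate 2 alone.

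Of 11 Rabs of late endosomes, lysosomes, lysosome-related organelles and autophagy, 8 were detected. Rab7a, which directs fusion with lysosomes, lay at -0.69, -0.68, -0.76 and -0.62 (-0.69 ± 0.06, SD, n = 4), and no array stood out. Its relative Rab7b, known for transport from late endosomes to the Golgi, had levels of -2.38, -1.97, -2.08 and -2.19 (-2.15 ± 0.18), lowest on replicate 1. Of the 3 Rab7b probes 2 were detected on all arrays, and the other gave 3.69, 8.17, 4.24 and 4.96 units and was detected on none. Rab9a returns receptors from late endosomes to the Golgi and lay at -1.96, -1.86, -1.97 and -2.16 (-1.99 ± 0.13), while its paralog Rab9b was on 0 arrays, with 3.67 to 4.47 units.

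Rab32 and Rab38 are related Rabs that deliver cargo to melanosomes and other lysosome-related organelles. Rab32 was detected at -0.78, -0.89, -1.01 and -0.88 (-0.89 ± 0.09), whereas Rab38 gave 4.2, 4.72, 4.86 and 5.35 units and was on 0 arrays. Rab34, known for lysosome positioning and macropinosomes, was among the 3 Rab genes of largest spread, with -1.89, -1.95, -2.12 and -2.37 (-2.08 ± 0.21). Its probe was printed on 10 spots, whose standard error within an array was 0.040 to 0.060 log2 units; this holds no labelling, hybridisation or culture noise. The related Rab36 had 4 probes, none detected on all arrays. Its brightest gave 12.2, 20.4, 17.5 and 22.4 units and passed on replicates 2 and 4, and of its other probes 1 passed on replicate 1 and 1 on replicate 2. Rab12 (0.71 ± 0.14), which sends receptors to lysosomes, Rab24 (0.28 ± 0.07) and Rab7l1 (1.55 ± 0.11), the array's name for Rab29 of the trans-Golgi network, were detected as well. The array places the Rab12 probes on another chromosome than the RefSeq gene.

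Of 8 recycling Rabs 6 were detected. Rab11a, the central Rab of recycling endosomes, had levels of 1.62, 1.65, 1.74 and 1.75 (1.69 ± 0.06, SD, n = 4) on its brightest probe. The other detected Rab11a probe lay at -1.71, -1.55, -1.84 and -1.95, lowest on replicate 4, where the brightest was highest. Levels of Rab11b were -1.17, -1.23, -1.19 and -1.01 (-1.15 ± 0.10). Rab25, a relative of both that is best known from epithelium, was detected too, with 80.4, 102, 68.2 and 54.1 units (-4.04 ± 0.12). Of the 9 epithelial markers 1 was detected on all 4 arrays and 2 on 1 to 3, and whether this bears on the Rab25 signal was not tested. The epithelial Rab17 gave 9.47, 12.3, 8.61 and 5.95 units and was on 0 arrays. Rab15, a Rab of recycling in neurons, was on 0 arrays on a probe printed 10 times, at 3.82 to 4.90 units.

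Rab14, which links the Golgi, endosomes and phagosomes, gave 14487, 16319, 11644 and 8409 units. The levels of 3.46, 3.45, 3.30 and 3.13 (3.34 ± 0.15) were lowest on replicate 4. Rab10, known for recycling and for membrane ruffles, lay at -0.43, -0.18, -0.28 and -0.22 (-0.28 ± 0.11) on its brightest probe. The other detected Rab10 probe lay at -3.16, -3.27, -3.01 and -2.96, lowest on replicate 2, where the brightest was highest. Rab35, which acts in fast recycling and on the forming phagosome, had 2.99, 3.00, 2.99 and 2.85 (2.96 ± 0.07): replicates 1 to 3 nearly coincided and replicate 4 lay below them.

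Of 13 Rabs of the endoplasmic reticulum, Golgi and lipid droplets, 8 were detected. Rab1a, which carries vesicles from the endoplasmic reticulum to the Golgi, had levels of 2.72, 2.90, 2.71 and 2.68 (2.75 ± 0.10, SD, n = 4). Its paralog Rab1b averaged 2.77 ± 0.07, on a probe that the array places on another chromosome than the RefSeq gene. Rab2a, of the same early secretory route, lay at 1.85, 1.92, 1.97 and 1.91 (1.91 ± 0.05). Rab18, a Rab of lipid droplets and the endoplasmic reticulum, lay at 2.08, 2.05, 1.99 and 1.89 (2.00 ± 0.08), and all 4 of its probes were detected. The brightest probe of each of these was above the 75th percentile on every array. By brightest probe, this held for 16 of 41 detected Rab genes (39.0%), against 35.8% of all detected genes. Other detected probes averaged -2.45 for Rab1b, -0.44 for Rab2a, 0.51 for Rab1a, and -1.60, 0.82 and 1.40 for Rab18. Among the rest of the 16, they averaged -1.76 for Rab11a, -3.35 for Rab12, -1.19 for Rab4b and -3.89 for Rab35. For Rab14 they averaged -0.73 and 1.88, and for Rab28 1.52, so the count depends on the probe taken. Rab6a, which moves vesicles from the Golgi, was less even, at -1.08, -0.91, -1.41 and -1.23 (-1.16 ± 0.22), highest on replicate 2 and lowest on replicate 3.

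Rab2b (-0.37 ± 0.13), the Golgi and autophagy Rab33b (-1.0 ± 0.05) and Rab43 (-1.71 ± 0.05) completed the detected Golgi group. Rab6b, Rab33a, Rab19 and Rab39a were on 0 arrays, at 3.52 to 12 units. Rab30 had 4 probes, of which 1 gave 21.4, 19, 6.14 and 10.5 units and passed on replicate 1 alone. Within close pairs of this group, Rab6a and Rab33b were on all arrays, and their paralogs Rab6b and Rab33a on 0. With the weaker detection flag (positive and significant) Rab33a was detected on all arrays too.

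Of 10 Rabs of regulated secretion and polarised exocytosis, 6 were detected. Rab27a, which docks secretory lysosomes and granules, had levels of -0.62, -0.58, -0.78 and -0.71 (-0.67 ± 0.09, SD, n = 4). Its paralog Rab27b was on 0 arrays by all 3 of its probes, the brightest giving 7.26, 4.81, 5.00 and 6.06 units. Among the Rab3 genes, known from synaptic vesicles and granules, Rab3d was detected at -2.75, -2.81, -2.87 and -2.82 (-2.81 ± 0.05). Rab3a gave 3.48, 9.32, 4.05 and 4.26 units and was on 0 arrays, as were Rab3b and Rab3c. Markers of neurons were on 0 arrays as well, and whether this bears on the Rab3 genes was not tested.

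Rab8a, which drives exocytosis towards the plasma membrane and cilium, lay at 1.84, 1.87, 1.81 and 1.74 (1.81 ± 0.05), and Rab8b at -0.25, -0.23, -0.29 and -0.40 (-0.29 ± 0.07). Rab13, a tight junction Rab in epithelium, lay at -0.24, -0.21, -0.11 and -0.12 (-0.17 ± 0.07). Rab26, of secretory granules, averaged -2.16 ± 0.14. No array stood apart in these genes by Dixon's ratio.

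The remaining 4 Rab genes were all detected. Rab23, a cilium Rab that restrains Hedgehog signalling, had 1 of 2 probes detected on all arrays, at -1.72, -1.58, -1.85 and -1.87 (-1.75 ± 0.13, SD, n = 4). Its other probe gave 32.3, 41.0, 12.2 and 13.3 units and passed on replicates 1 and 2. Rab28 averaged 1.52 ± 0.11 and Rab40b -2.18 ± 0.06. Rab40c, a Rab with a SOCS box that recruits a ubiquitin ligase, gave 58.2, 59.0, 64.9 and 80.7 units. Against the scale of each array this was -4.50, -4.66, -4.18 and -3.57, highest on replicate 4, with the largest SD of the set (0.48) and a 2.13-fold range. Without replicate 4 its SD was 0.24 and its range 1.39-fold, and the largest SD was then that of Rab6a (0.26).

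Replicates differed little over the detected Rab genes. The SD of a Rab gene over the 4 arrays ranged from 0.036 to 0.48 with a median of 0.093, against a median of 0.11 over all 10333 detected genes, and 15 of 41 Rab genes lay above that all-gene median. The median SD was 0.081 for detected Ras genes and 0.12 for detected Arf genes. In the lists of Rab partners below it was 0.080 to 0.12, so the Rab median is not particular to Rab genes. None of these medians is matched for signal. Over detected probes the median SD was 0.098 for Rab probes (quartiles 0.072 and 0.14) and 0.13 for all probes (quartiles 0.082 and 0.20). The median Rab gene had a 1.15-fold range between its highest and lowest array. A range of 1.5-fold or more was seen for 1 of 41 Rab genes (2.44%), Rab40c, against 10.5% of all detected genes. Without replicate 4 it was 0 of 41, against 6.25%.

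**Figure D2:**
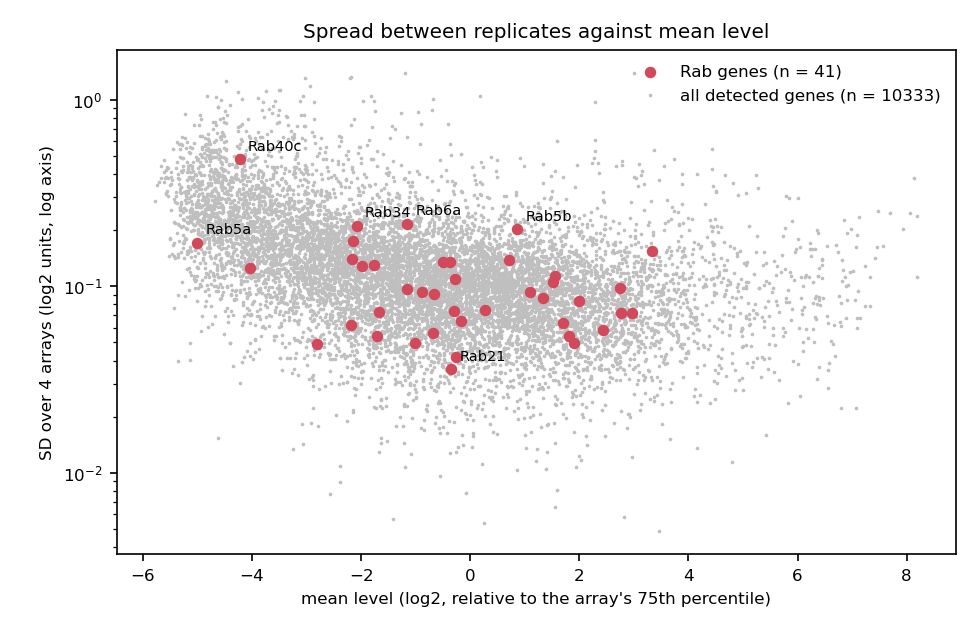
SD over the 4 arrays (log2 units, log axis) against mean level (log2, relative to the array's 75th percentile) for 41 detected Rab genes (red) and 10333 detected genes (grey). Rab40c has the largest SD of the Rab genes (0.48, or 0.24 without replicate 4) and Rab21 the smallest (0.036).

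Variance between replicates was tested with limma, setting each probe's residual variance against a prior that follows mean signal, with Benjamini-Hochberg adjustment over 19400 probes. By this test 0 of 41 Rab genes varied more than the prior allows, against 0.145% of all detected genes, and 0 of 61 detected Rab probes, against 0.17% of all detected probes. Without adjustment 1 Rab gene, Rab40c, passed a threshold of 0.05 (limma adjusted p = 0.76), against 5.62% of all genes. Rab5b came next (limma adjusted p = 0.81). With so few of all genes called, a count of 0 in 41 genes says nothing particular about Rab genes. A p-value above the threshold does not show that a gene was constant, and 4 arrays limit what the test can find.

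By array, 8, 17, 8 and 8 of the 41 Rab genes had their highest level on replicates 1 to 4, which is 19.5%, 41.5%, 19.5% and 19.5%, against 19.8%, 25.5%, 22.6% and 32.1% of all detected genes. The lowest level fell on replicates 1 to 4 for 8, 8, 9 and 16 Rab genes, which is 19.5%, 19.5%, 21.95% and 39.0%, against 23.7%, 20.1%, 27.9% and 28.3% of all genes. The median deviation of a Rab gene from its own mean was 0.010, 0.026, -0.0039 and -0.032 log2 units on replicates 1 to 4, against -0.0045, 0.010, -0.0081 and 0.0073 over all genes. Whether these medians differ between arrays was not tested. The 41 genes are not independent replicates and share the arrays' scale. Across them, Pearson's r between pairs of arrays was 0.9931 to 0.9982, against 0.9930 to 0.9972 over all genes. Differences in level between probes bring r near 1, so it says little about how well replicates match. The SD of the log2 difference was 0.12 to 0.25, against 0.19 to 0.30 over all genes.

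**Figure D3:**
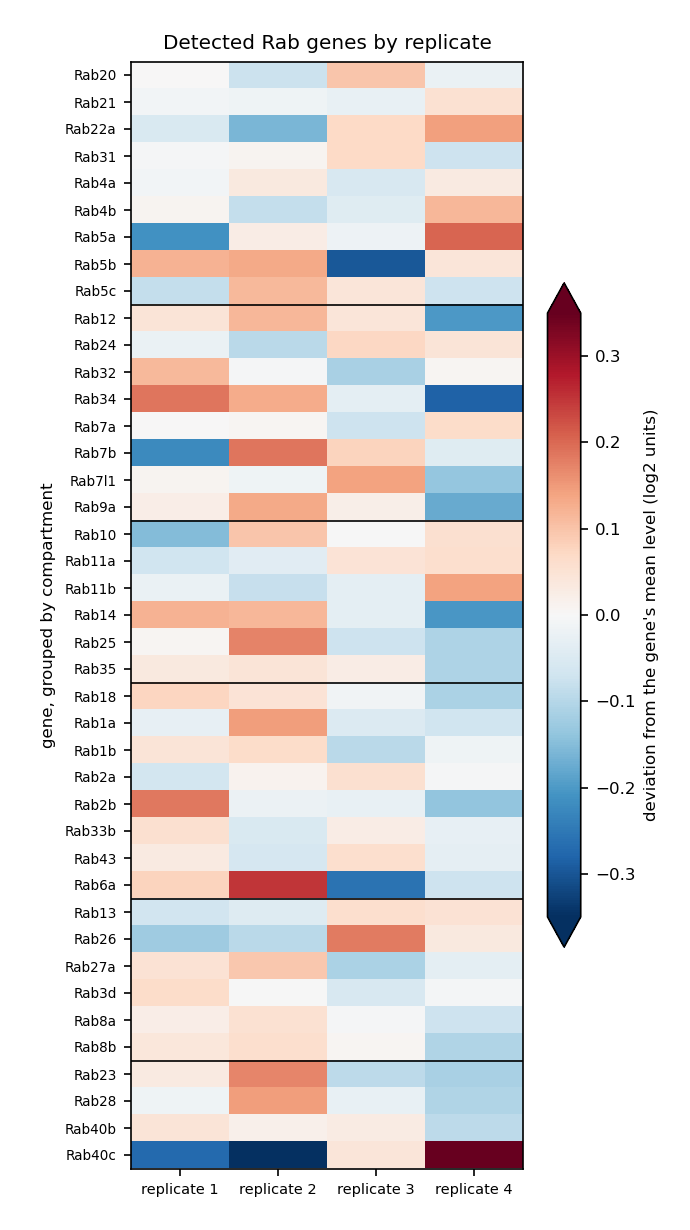
Deviation of each detected Rab gene from its own mean level (log2 units, colour) on replicates 1 to 4, with genes grouped by compartment from early endosome (top) to cilium and others (bottom). Rab40c exceeds the colour range on replicates 2 and 4, and replicate 4 holds the lowest level of 16 of 41 genes.

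Some Rab genes could be checked on several probes. Of 19 such genes 13 had all probes detected, 3 some (Rab22a, Rab23 and Rab7b) and 3 none (Rab27b, Rab30 and Rab36). In the 15 genes with at least 2 detected probes, the largest gap between probes in their deviation on any array ranged from 0.033 to 0.46 log2 units. The smallest was for Rab28, whose 2 probes have the same sequence and so repeat 1 measurement. The largest was for Rab35, where the brighter probe was lowest on replicate 4 (2.85) and the probe over the stop codon, shown above, gave -3.96, -4.09, -3.96 and -3.54, highest there. The array places both Rab12 probes and both Rab1b probes on a different chromosome from the RefSeq gene, so their positions are not given. Which locus these probes measure was not tested.

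Most genes whose products run the Rab cycle were detected. Of 114 listed partners on the array 95 (83.3%) were detected on all 4 arrays, against the 54.9% of all genes, and 0 passed the limma variance test. All 8 genes of prenylation, escort and recycling were detected, including both subunits of the Rab prenylating enzyme, Rabggta (-0.37 ± 0.05, SD, n = 4) and Rabggtb (0.25 ± 0.12). Of 28 exchange factor genes 25 were detected, among them the Rab5 exchange factor Rabgef1 (-0.49 ± 0.05), and Rin1, with 3.82 to 12.5 units, Rab3ip and Dennd2a were on 0 arrays. Of 26 genes listed under GTPase activating proteins 24 were detected, including Rab3gap2 (-0.61 ± 0.07) and Rabgap1 (-0.54 ± 0.12), with Rabgap1l on 1 array and Sgsm1 on 0. Rab3gap1, listed with Rab3gap2, had no match on the array, so it was not measured.

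Of the listed effectors 19 of 22 genes on endosomes (86.4%) were detected. On recycling, secretory and Golgi membranes it was 19 of 30 genes (63.3%), nearer to the 54.9% of all genes. The Rab5 effector Rabep1, which works with Rabgef1, lay at 0.26 ± 0.07. Eea1, the Rab5 effector that tethers early endosomes, gave 35.4, 40.1, 33.1 and 15.7 units and passed on replicates 1 to 3 alone, and Vps8 and Rilpl1 were on 0 arrays. The Rab11 effector Rab11fip1 lay at -1.49 ± 0.20, and Rab11fip2, with 42.0, 31.5, 39.8 and 17.2 units, and Rab11fip4 each passed on 3 arrays. Myo5b, Sytl1, Sytl3, Sytl4, Sytl5, Rims1, Rph3a, Rph3al and Bicd1 were on 0 arrays. Of other small GTPases, 21 of 28 Arf genes and 16 of 25 Ras genes were detected.

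**Figure D4:**
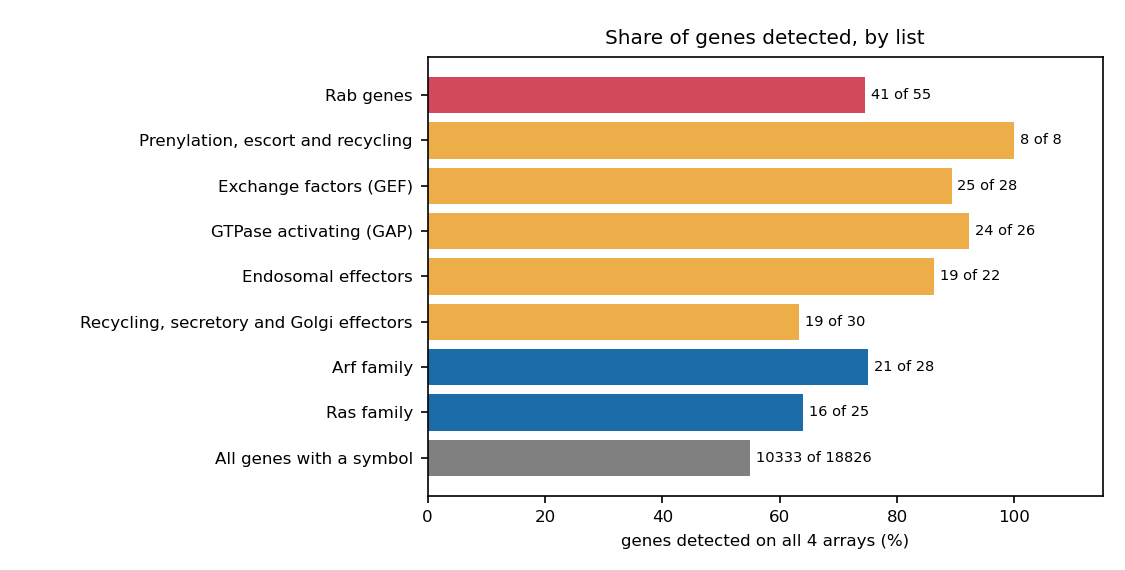
Share of genes detected on all 4 arrays (percent) for the Rab genes (red), the lists of Rab partners (yellow), Arf and Ras genes (blue) and all genes with a symbol (grey), with the counts at each bar. Rab genes stand at 41 of 55, and all genes at 10333 of 18826.

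Promoters were compared by their number of CpG dinucleotides, a feature of many broadly expressed genes, in the 250 bases before and 50 bases after each start that RefSeq gives (GRCr8). A promoter was found for 34 Rab genes detected on all 4 arrays and 11 of the others. Detected Rab genes had a median of 23.5 CpG (quartiles 16.25 and 31.75, range 4 to 41), and the others 13 (quartiles 12.5 and 20.5, range 7 to 30), so the ranges overlapped. Over all genes the medians were 21 for 8617 detected and 6 for 6740 others. Fewer than 10 CpG were found for 2 of the 34 (5.88%), Rab14 with 4 and Rab7b with 6, and for 1 of the 11 (9.09%), Rab17 with 7, against 18.5% of all detected and 60.4% of all other genes. These counts are a description with no test, and no promoter activity was measured.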

How the data were processed

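The deposited values were fluorescence intensity per spot, per the file headers: the processed signal, which Agilent Feature Extraction 11.0.1.1 had background-corrected (per the submitters' processing notes), and, for 1 alternative, the mean signal with its local background, each linear and with no normalization from array to array. RNA (100 ng) was Cy3-labelled, per the labels' protocols. All arrays lay on 1 slide with 1 scan time, so no batch was tested, and 4 arrays limit the precision.

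Spots flagged as non-uniform or population outliers (2 of the Rab spots) were left out. From each log2 processed signal, the array's log2 75th percentile over 58717 non-control spots was subtracted, and replicate spots were then averaged per probe. A probe was detected where over 0.5 of its spots were well above background. A gene took the level of its brightest probe, among the detected ones where there were any. RefSeq (GRCr8) symbols named 23733 probes by accession, 5166 by symbol and 352 by older symbol, and 16347 had none. RefSeq positions were not printed.

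The variance test used limma 3.58.1 (R 4.3.3; F test, threshold 0.05) and was checked on simulated data. Python 3.11.15, numpy 2.4.6, pandas 2.3.3 and matplotlib 3.10.9 were used.

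The members, role groups, partner and marker lists, tests and alternatives were chosen with earlier results of these data known. Values on each array are given for a written list of Rab genes of endocytic, secretory and related roles, genes detected on 1 to 3 arrays, the 3 of largest and 3 of smallest SD, genes with an array that stands apart and genes whose probes disagree on detection. The first 2 genes of each partner list and those not detected on all arrays are named. Genes named beyond this were chosen after their values were seen. Alternatives were another detection flag, arrays and probes required, flagged spots, gene naming, background correction, normalization, scale, filter, prior, threshold and each replicate left out. One further family of genes is not reported here.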

Additional observations from a re-analysis of the deposited data

Results flagged for a closer look

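Rab35 had 1 array apart from the others: its level on replicate 4 (2.85) lay below 2.99 to 3.00 on replicates 1 to 3, a gap of 0.876 of the whole range (Dixon's ratio). By chance about 1 in 20 genes has such an array. Among detected genes 1 of 41 Rab genes (2.44%) had one, against 5.11% of all genes. The second Rab35 probe was highest on replicate 4.

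The Rab5 effector Eea1 had replicate 4 apart, with 15.7 units against 33.1 to 40.1 units on the other arrays and a gap of 0.923 of the range. On that array its probe was not well above background, so the value there is only a bound and the ratio is not exact. Eea1 is named for missing detection on 1 array, a rule that favours such a gap. Among partner genes detected on all 4 arrays 5 of 95 (5.26%), Ccz1, Lrrk1, Rbsn, Rilpl2 and Tbc1d5, had an array apart, against 5.11% of all genes.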

How the results depend on the processing

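The count of 41 detected Rab genes was 45 with the weaker detection flag (positive and significant), which added Rab17, Rab30, Rab33a and Rab36 (81.8% of Rab genes, against 65.5% of all genes). It was 42 with detection on at least 2 arrays, which added Rab36 (76.4%, against 59.3% of all genes). It was 38 when every probe had to pass, which lost Rab22a, Rab23 and Rab7b (69.1%, against 47.3%). It stayed at 41 with flagged spots kept and from 41 to 41 when each replicate was left out. With members named by RefSeq it was 42 of 57 genes, against 41 of 55. Of the genes this added, Rab37 was detected (-3.27 ± 0.23, SD, n = 4) and Rab44 was on 0 arrays. Of the partner lists, requiring every probe lowered exchange factors to 22 (against 25), GTPase activating proteins to 21 (against 24) and recycling, secretory and Golgi effectors to 17 (against 19). The weaker flag gave 26, 25 and 21 for these and 21 endosomal effectors (against 19), detection on 2 arrays 20 endosomal and 21 recycling, secretory and Golgi effectors, and so did leaving out replicate 4. The variance test called 0 Rab genes under every alternative run. The median SD of Rab probes was 0.081 to 0.11 with a replicate left out, 0.092 to 0.10 under other normalizations, backgrounds and scales, and 0.13 with dim probes kept, where all probes had 0.35. Other scales shifted the median detected probe by -0.55 (75th percentile of detected probes) and 1.58 (their median), which moved 36 and 37 of 37 named levels by more than their SD. The normexp background correction (offset 50) shifted it by 0.18 and moved 26. Quantile normalization, flagged spots and a left-out replicate moved 0. No paired analysis was possible because all 4 samples belong to 1 group.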
